A study of Mus musculus with 3 samples.

Results

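The MHC class II genes encode the proteins with which antigen-presenting cells show peptides to CD4 T cells, and 10 of them were followed here across mouse blood leukocytes. They are H2-Aa, H2-Ab1 and H2-Eb1 (classical chains), Cd74 (invariant chain), H2-DMa, H2-DMb1 and H2-DMb2 (peptide editor), H2-Oa and H2-Ob (its modulator) and Ciita (transcriptional regulator). All were looked up by symbol, and 10 of 10 were found among the 31053 genes of the table.

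The study collected blood from C57/BL6J mice that were controls (Con, 0 h) or had been deprived of sleep for 24 h (SD24h) or 48 h (SD48h). Blood was drawn behind the eye under pentobarbital, red cells were lysed with ammonium chloride, and the leukocytes of 3 mice of a group were pooled into 1 single-cell 3′ library. Each group is therefore 1 library of pooled animals, and no source used here gives the animals' age or sex. The deposited matrix marks the 3 libraries only by the endings 1, 2 and 3 of the barcodes, which no label ties to a group, so they are called libraries 1, 2 and 3 and no comparison of control with sleep-deprived mice is made.

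In textbook terms, the alpha and beta chains of a class II molecule pair in the endoplasmic reticulum with the invariant chain, which blocks the peptide groove. In endosomes the invariant chain is cut down to a short fragment named CLIP, H2-DM exchanges CLIP for other peptides, and H2-O restrains H2-DM. B cells, dendritic cells and activated macrophages are the main bearers of these genes, and Ciita acts on their promoters through factors bound to conserved motifs called the X and Y boxes. C57BL/6 mice carry the b haplotype, in which H2-Ea is defective, so their H2-Eb1 chain has no partner at the cell surface.

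Library totals were 40807434, 30114546 and 36523283 unique molecular identifiers (UMIs, each standing for 1 captured RNA molecule) over 8815, 6648 and 6741 barcodes. Of these barcodes 7122, 5978 and 5785 passed the cell filter, and 61 barcode sequences occurred in more than 1 library. The libraries differed in makeup: neutrophil-like cells numbered 533, 3250 and 1978 and B-like cells 4269, 1403 and 1999. Cells were clustered without the 10 genes and named from fixed markers. The classes with a bearing on class II were B-like cells, classical monocyte-like cells (158, 221 and 212), non-classical monocyte-like cells (170, 62 and 213), a monocyte cluster led by C1qb (17, 66 and 25) and a small cluster led by Cd209a (21, 24 and 23). The classical class was not the same cluster in every library. In library 1 it was a cluster led by Lpl that met just 3 of 8 classical markers, in library 2 mostly a cluster led by Chil3, and in library 3 mostly one led by Prtn3, Vcan and Saa3. Levels below are UMIs of a gene per 1000000 UMIs of a class (CPM), with 95% intervals that cover counting error only, because there is no replicate of any library. A UMI counts 1 transcript end whatever the transcript's length, so UMIs of different genes in the same cells can be set side by side, apart from differences in capture.

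Of the 9 members annotated here with coordinates (GENCODE M21, GRCm38), 8 lie on chromosome 17 within 224 kb, from H2-Oa (chr17:34092340-34095234) to H2-Eb1 (chr17:34305867-34316674). H2-DMb2 (chr17:34143307-34151555) and H2-DMb1 (chr17:34153072-34160230) are neighbours 1516 bases apart. H2-Aa (chr17:34282744-34287823) is on the reverse strand, and Ciita (chr16:10480059-10528418) stands alone on chromosome 16. Promoters from RefSeq (GRCm38.p6, 250 bases before to 50 bases after the start) were found for 7 of the 9 members looked up. The windows below run 80 bases around the Y box. They set the paired genes H2-DMb1 and H2-DMb2, whose levels divided by cell class, beside other members. Of these, B-like cells led H2-Oa and H2-Ob, while H2-Aa and H2-Eb1 had no leading class. H2-DMa, found with more than 1 promoter, is not printed. Its ATTGG in the gene's direction lay 198 bases before the start, with no X box match. Capitals mark ATTGG, the core of the Y box bound by NF-Y, and, where present at 20 to 40 bases before it, AGCAAC, a core of the X box, or its looser form AGNNAC. All are written 5′ to 3′ in the direction of the gene.
H2-Aa, chr17:34287852-34287931, reverse strand: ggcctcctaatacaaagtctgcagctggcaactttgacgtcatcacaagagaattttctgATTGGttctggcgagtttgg
H2-Eb1, chr17:34305748-34305827, forward strand: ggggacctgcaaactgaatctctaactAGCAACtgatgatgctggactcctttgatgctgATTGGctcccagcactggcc
H2-DMb1, chr17:34153070-34153149, forward strand: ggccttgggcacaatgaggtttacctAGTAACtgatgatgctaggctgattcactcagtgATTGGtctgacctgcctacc
H2-DMb2, chr17:34145099-34145178, forward strand: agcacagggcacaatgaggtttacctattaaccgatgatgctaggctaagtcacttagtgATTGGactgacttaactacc
H2-Oa, chr17:34092276-34092355, forward strand: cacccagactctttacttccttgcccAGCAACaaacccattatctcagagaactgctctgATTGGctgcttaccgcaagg
H2-Ob, chr17:34238788-34238867, forward strand: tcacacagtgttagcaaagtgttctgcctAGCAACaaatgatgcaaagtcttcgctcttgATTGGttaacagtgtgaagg

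AGCAAC followed by ATTGG on the same strand, searched on both strands, was present in 3 of these 7 members (H2-Eb1, H2-Oa and H2-Ob, with gaps of 27, 28 and 25 bases). Of all 32851 promoters of 300 bases, 0.338% held that pair. The looser pair AGNNAC with ATTGG, which contains the first, was in 4 of the 7, adding H2-DMb1 with a gap of 28 bases, and in 3.76% of all promoters. ATTGG alone was in 7 of 7 and in 37.4% of all promoters. A member was counted where any of its promoters matched, whereas the shares are of single promoters. A match describes these letters only, and a missing match says only that they are not in the window. The H2-DMb1 and H2-DMb2 windows printed above, set end to end without gaps, are identical at 67 of 80 bases.

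B-like cells and the Cd209a-led cells held the class II transcripts at the highest levels. Summed over the 10 genes, the level in B-like cells was 26093, 28156 and 28031 CPM in libraries 1, 2 and 3, and in Cd209a-led cells 17139, 34385 and 36441 CPM. The C1qb-led monocytes followed with 11438, 15552 and 23152 CPM. Non-classical monocyte-like cells had 2094, 2295 and 4116 CPM and classical monocyte-like cells 1571, 760 and 604 CPM. T-like, NK-like and neutrophil-like cells lay at 305 CPM or below. Libraries differed in the order at the top: the sum in Cd209a-led cells was 0.657 times that in B-like cells (0.637 to 0.678) in library 1, but 1.22 times (1.2 to 1.25) and 1.3 times (1.27 to 1.33) in libraries 2 and 3. Below that, C1qb-led, non-classical and classical cells kept the same order in the 3 libraries.

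A gene was said to be led by a class where that class had the highest level in each library and the interval of its ratio to the next class lay above 1. Of 7 classes (the 2 monocyte subsets, Cd209a-led, B-like, T-like, NK-like and neutrophil-like), B-like cells led 3 of the 10 members, H2-DMb2, H2-Oa and H2-Ob, against 2.12% of the 13234 genes tested. Cd209a-led cells led 2 members, H2-DMa and H2-DMb1, against 0.506% of the genes tested. The other 5 members, which are the classical chains, Cd74 and Ciita, had no class leading in all 3 libraries, because B-like cells were ahead in library 1 and Cd209a-led cells level or ahead in the others. With Cd209a-led cells left out, B-like cells led 9 of 10 members, all but H2-DMb1, against 2.88% of genes. That comparison has no C1qb-led cells. With these in place of the Cd209a-led cells, a choice made after the values were seen, B-like cells led 6 of 10, against 2.64% of genes. C1qb-led cells led H2-DMb1, and H2-Aa, H2-Ab1 and H2-DMa had no leading class. The share of all genes led by C1qb-led cells was not computed.

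**Figure D1:**
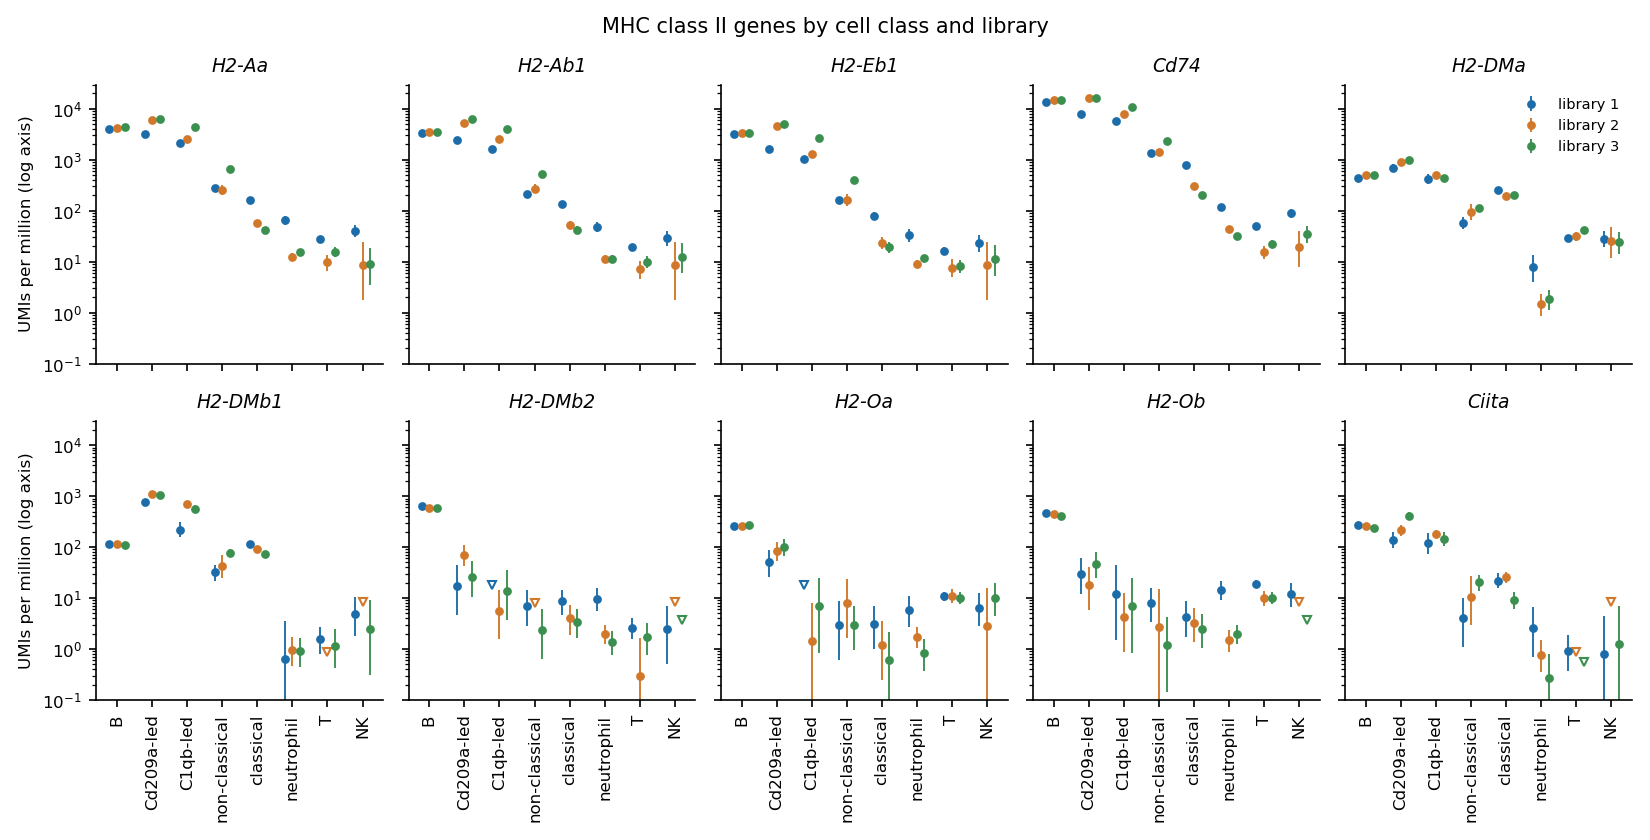
Level of each of the 10 genes, 1 panel a gene, in CPM on a log axis, by cell class and library (colours). Points are sums over cells with 95% Poisson intervals, and open triangles mark 0 UMIs, drawn at the limit of 3 UMIs. The classical chains and Cd74 stand at similar heights in B-like and Cd209a-led cells. H2-DMb2, H2-Oa and H2-Ob are highest in B-like cells, with Cd209a-led cells next for H2-Oa. H2-DMb1 is higher in Cd209a-led and C1qb-led cells than in B-like cells.

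Counts per cell showed how evenly the transcripts were spread. With each cell thinned to 1000 UMIs, B-like cells held a median of 24, 26 and 26 UMIs of H2-Aa, H2-Ab1, H2-Eb1 and Cd74 together, and 0.071% of them in library 1 and none of 1379 and 1953 in libraries 2 and 3 had 0. B-like cells thus seldom lacked these transcripts even at this depth. Cd209a-led cells were broader, with medians of 8, 35 and 30 UMIs and 28.6%, 16.7% and 13.04% of cells at 0. C1qb-led cells had medians of 0, 7.5 and 14 UMIs. In both monocyte subsets the median was 0: 66.5%, 87.3% and 88.2% of classical and 58.8%, 60.7% and 59.2% of non-classical cells had none. A few non-classical cells were as high as B-like cells, up to 51 UMIs in library 3. The upper end of the Cd209a-led cells, at 46, 73 and 85 UMIs, passed that of B-like cells (59, 60 and 62) in libraries 2 and 3. T-like cells reached at most 4 UMIs.

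**Figure D2:**
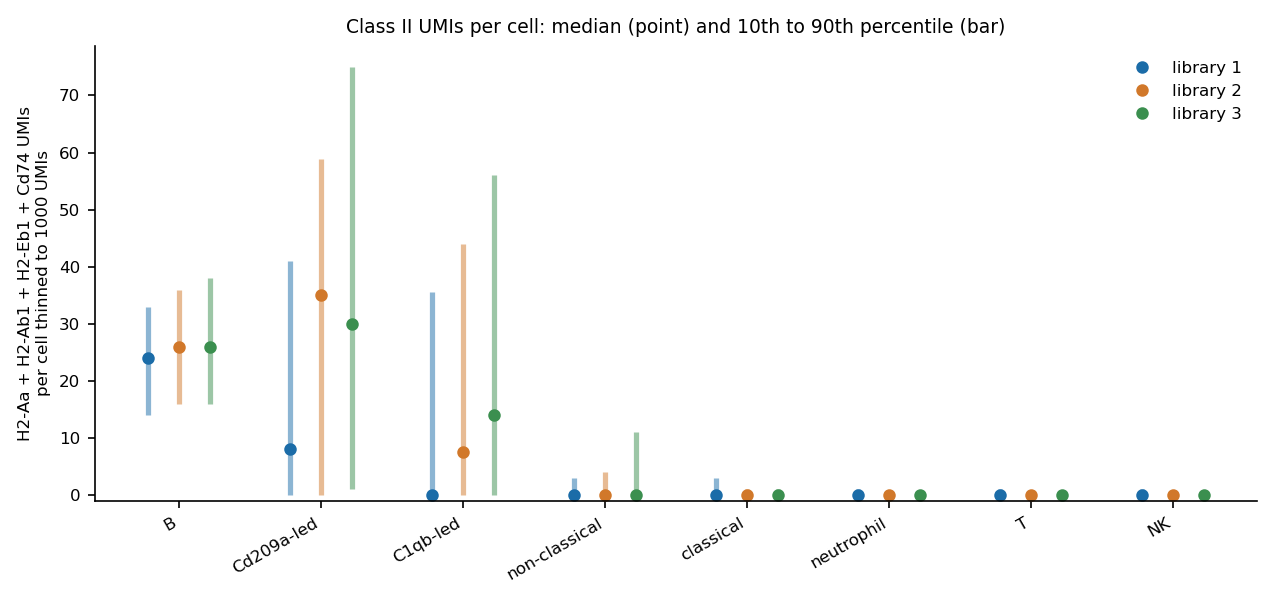
UMIs of H2-Aa, H2-Ab1, H2-Eb1 and Cd74 together in each cell thinned to 1000 UMIs, by class and library (colours); the point is the median over cells and the bar runs from the 10th to the 90th percentile. B-like cells have medians of 24 to 26 with short bars, Cd209a-led and C1qb-led cells have bars that reach 0 or 1, and both monocyte subsets have a median of 0.

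H2-Aa and H2-Ab1 encode the alpha and beta chains of I-A, the class II molecule that C57BL/6 cells display. In B-like cells H2-Aa reached 4054, 4291 and 4342 CPM, and in Cd209a-led cells 3267, 6045 and 6319 CPM. Against B-like cells of the same library the Cd209a-led cells were lower in library 1 (0.806 times, 0.749 to 0.865) and higher in libraries 2 and 3 (1.41 and 1.46 times). C1qb-led cells had 2153, 2540 and 4469 CPM of H2-Aa, so that in library 3 alone they came up to the B-like level. Non-classical cells had 274, 256 and 669 CPM and classical cells 159, 56.1 and 41.4 CPM.

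H2-Ab1 followed the same order, with 3278, 3580 and 3525 CPM in B-like cells and 2461, 5217 and 6216 CPM in Cd209a-led cells. The 2 chains of I-A stayed near parity: B-like cells had 1.24, 1.2 and 1.23 H2-Aa UMIs per H2-Ab1 UMI and Cd209a-led cells 1.33, 1.16 and 1.02. H2-Eb1, the beta chain of I-E, came to 3139, 3300 and 3300 CPM within B-like cells in spite of lacking a partner chain in this strain. Its ratio to H2-Ab1 differed between classes. It was 0.958, 0.922 and 0.936 in B-like cells, 0.674, 0.881 and 0.805 in Cd209a-led cells, 0.635, 0.521 and 0.69 in C1qb-led cells and 0.576, 0.444 and 0.46 in classical monocyte-like cells. The intervals of B-like cells (lowest bound 0.904) did not overlap those of the C1qb-led (highest bound 0.774) or classical cells (highest bound 0.718) in any library.

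Cd74 was the most abundant member in B-like, Cd209a-led, C1qb-led and non-classical cells of each library. In classical cells of library 3 H2-DMa had 683 UMIs and Cd74 674, and in T-like cells of libraries 2 and 3 H2-DMa had 107 and 220 UMIs and Cd74 52 and 120. The product of Cd74 serves as the chaperone of all class II dimers and as a receptor for the cytokine MIF. B-like cells had 13427, 14822 and 14746 CPM and Cd209a-led cells 8060, 16122 and 16311 CPM. Cd74 alone made up 51.5%, 52.6% and 52.6% of the class II UMIs of B-like cells and 47.0%, 46.9% and 44.8% of those of Cd209a-led cells. B-like cells had 10.5, 7.95 and 10.3 times the level of all monocyte-like cells together. That pool, used again below, holds the classical, non-classical and C1qb-led cells and the unnamed monocyte clusters, without the Cd209a-led cells. C1qb-led cells held 1865 of its 6806 class II UMIs in library 1, 10977 of 13781 in library 2 and 6724 of 15761 in library 3. Per H2-Aa UMI there were 3.31, 3.45 and 3.4 Cd74 UMIs in B-like cells, fewer in Cd209a-led cells (2.47, 2.67 and 2.58) and more in classical cells (4.92, 5.43 and 4.96).

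H2-DM frees the groove of CLIP and edits the peptide repertoire, and mice have a pair of genes for its beta chain. H2-DMa is the alpha chain. Cd209a-led cells had 695, 920 and 970 CPM of it, B-like cells 445, 492 and 501 CPM and C1qb-led cells 423, 497 and 430 CPM. Classical monocyte-like cells kept 259, 198 and 208 CPM, although their H2-Aa reached at most 159 CPM, and non-classical cells had 56.9, 96.0 and 113 CPM. Non-classical cells thus held 1.72, 4.56 and 16.2 times the H2-Aa of classical cells but 0.22, 0.484 and 0.542 times their H2-DMa.

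The ratio of H2-DMa to H2-Aa UMIs shows this reversal within the same cells. It was 0.11, 0.115 and 0.115 in B-like cells, 0.213, 0.152 and 0.154 in Cd209a-led cells and 0.208, 0.375 and 0.168 in non-classical cells. In classical monocyte-like cells it was 1.63 (1.39 to 1.91), 3.53 (2.92 to 4.29) and 5.02 (4.17 to 6.08), so H2-DMa UMIs outnumbered those of the chain whose peptides H2-DM edits. The sub-cluster led by Prtn3, Vcan and Saa3 had the widest gap: in library 3 its 143 cells held 434 UMIs of H2-DMa and 21 of H2-Aa, a ratio of 20.7 (13.3 to 33.7), and in library 2 its 35 cells held 55 and 0. The Chil3-led sub-cluster had ratios of 3.09 (2.55 to 3.76) and 2.17 (1.73 to 2.72) in libraries 2 and 3. More H2-DMa than H2-Aa was not particular to classical cells. T-like cells had 29.2, 31.5 and 41.6 CPM of H2-DMa against 27.5, 9.72 and 15.7 CPM of H2-Aa, nearly level in library 1. NK-like cells had more H2-DMa than H2-Aa in libraries 2 and 3, from few UMIs, but less in library 1.

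The DM beta genes divided by cell class. H2-DMb1 was at 759, 1094 and 1043 CPM in Cd209a-led cells and 221, 706 and 568 CPM in C1qb-led cells, whereas B-like cells held 113, 117 and 111 CPM. Cd209a-led cells had 6.69 (5.71 to 7.8), 9.34 (8.13 to 10.7) and 9.38 (8.18 to 10.7) times the B-like level, the widest excess over B-like cells of the 10 members. Classical monocyte-like cells, at 116, 91.1 and 73.1 CPM, were near the B-like level. H2-DMb2 had the opposite order. B-like cells held 627, 583 and 588 CPM of it. Cd209a-led cells had just 4, 20 and 7 UMIs of it and all monocyte-like cells together 23, 14 and 21 UMIs. B-like cells therefore exceeded monocyte-like cells 80.1-fold (53.4 to 126), 152-fold (90.4 to 278) and 151-fold (98.8 to 244). These folds, and those of H2-Oa and H2-Ob below, were taken with called doublets left out. With these kept, the log2 difference between B-like and monocyte-like cells in the library where it was smallest went from 6.06 to 3.77 for the ratio of H2-DMb2 to H2-DMb1, and from 4.38 to 2.09 for that of H2-O to H2-DM.

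H2-DMb2 outnumbered H2-DMb1 by 5.53 to 1 (5.28 to 5.79), 4.97 to 1 (4.58 to 5.41) and 5.29 to 1 (4.92 to 5.69) in B-like cells. The ratio was 0.083 (0.0518 to 0.127), 0.0188 (0.0102 to 0.0317) and 0.0385 (0.0236 to 0.0594) in monocyte-like cells and 0.0225, 0.0647 and 0.0245 in Cd209a-led cells. The 3 libraries of B-like cells lay close together and far above every myeloid value. Because the ratio is taken within the same cells, it does not rest on how much RNA the classes hold. The genes are near copies: of the 451 stretches of 50 bases in the last 500 bases of the longest H2-DMb1 transcript, 92 (20.4%) also occur in an H2-DMb2 transcript, while none of those of H2-DMb2 occur in H2-DMb1. No source used here says how reads shared by both genes were counted. The beta to alpha balance moved as well, since H2-DMb1 UMIs per H2-DMa UMI were 0.255, 0.238 and 0.222 in B-like cells and 1.09, 1.19 and 1.08 in Cd209a-led cells.

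**Figure D3:**
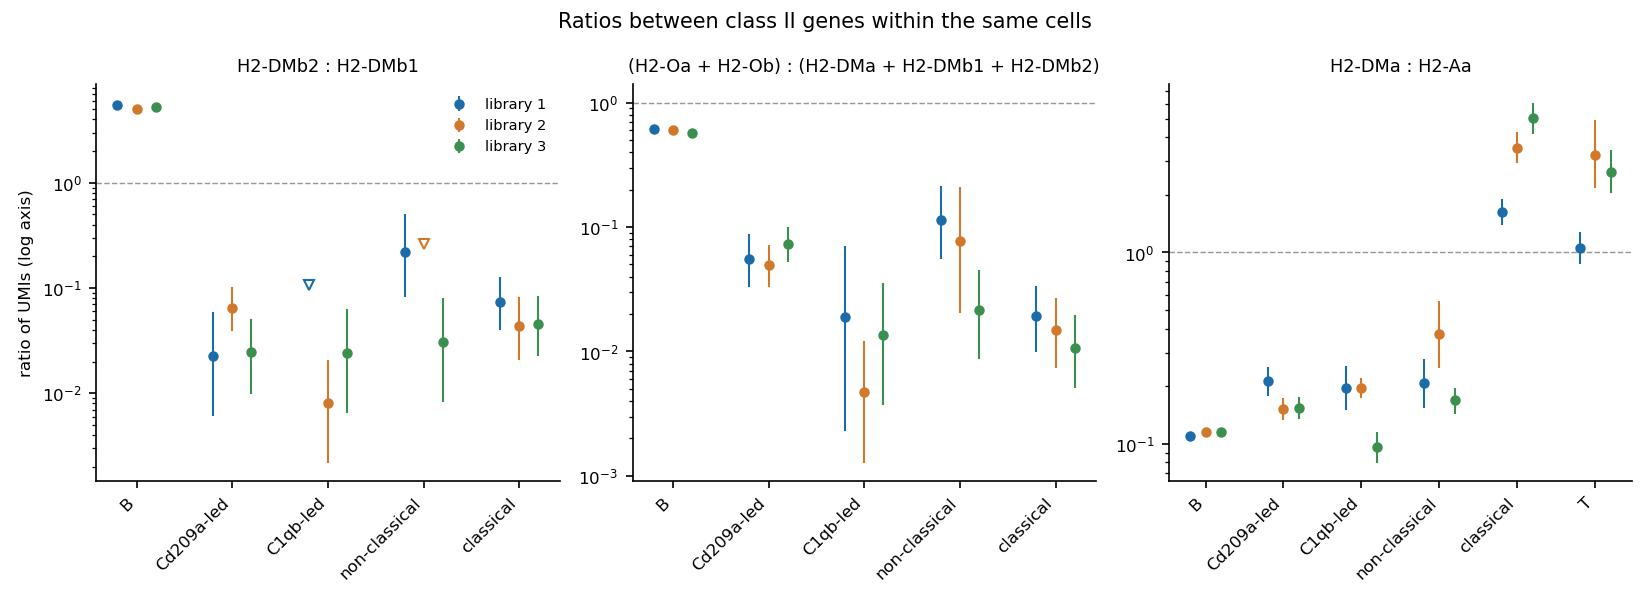
Ratios of UMIs of one class II gene to another within the same cells, 1 panel a ratio, on a log axis by cell class and library (colours), with 95% exact intervals; open triangles mark 0 UMIs of the first gene, drawn at the upper end of the interval. H2-DMb2 to H2-DMb1 is near 5 in B-like cells and below 1 in Cd209a-led, C1qb-led, non-classical and classical cells. H2-O to H2-DM is near 0.6 in B-like cells. H2-DMa to H2-Aa is above 1 in classical monocyte-like cells and in T-like cells, though only just above 1 in T-like cells of library 1.

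H2-Oa and H2-Ob encode the chains of H2-O, which binds H2-DM and holds it back. Both were B-like genes here. B-like cells held 258, 265 and 276 CPM of H2-Oa and 474, 451 and 405 CPM of H2-Ob. In all monocyte-like cells together there were 8, 7 and 9 UMIs of H2-Oa and 18, 13 and 12 UMIs of H2-Ob, so B-like cells stood 94.5, 138 and 165 times higher for H2-Oa and 77.3, 127 and 182 times higher for H2-Ob. Cd209a-led cells lay between, with 51.2, 84.9 and 102 CPM of H2-Oa (12, 24 and 28 UMIs) and 29.9, 17.7 and 47.4 CPM of H2-Ob (7, 5 and 13 UMIs). They had more H2-Oa than H2-Ob, at 1.71 (0.622 to 5.14), 4.8 (1.8 to 16.1) and 2.15 (1.08 to 4.53) UMIs to 1, where B-like cells had 0.543, 0.587 and 0.681. The intervals of the Cd209a-led ratio lay above those of B-like cells in each library.

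Set against its target, H2-O was scarce in the myeloid classes. H2-Oa and H2-Ob together gave 0.617 (0.604 to 0.63), 0.601 (0.578 to 0.625) and 0.567 (0.548 to 0.587) UMIs per UMI of the 3 DM genes in B-like cells. The same ratio was 0.0296, 0.0121 and 0.0132 in monocyte-like cells and 0.0551, 0.0492 and 0.0733 in Cd209a-led cells. The interval of B-like cells lay above those of both in each library.

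Ciita encodes the coactivator without which class II promoters are largely silent. B-like cells had 276, 256 and 237 CPM and Cd209a-led cells 141, 216 and 405 CPM, from 33, 61 and 111 UMIs. C1qb-led cells had 123, 183 and 145 CPM. In classical monocyte-like cells Ciita was at 22.0, 25.5 and 9.13 CPM and in non-classical cells at 4.00, 10.7 and 20.3 CPM (4, 4 and 34 UMIs). Among T-like cells 7 UMIs were found in library 1 and none in libraries 2 and 3. In libraries 1 and 2 classical cells had more Ciita than non-classical cells, the reverse of their order for the chains. The non-classical value rests on 4 UMIs in each, and in library 2 counting error leaves this order uncertain. Per H2-Aa UMI, classical cells held 0.138 (0.0949 to 0.197), 0.454 (0.332 to 0.614) and 0.221 (0.143 to 0.329) UMIs of Ciita, above B-like cells (0.0682, 0.0596 and 0.0546) in each library, and non-classical cells 0.0146, 0.0417 and 0.0303.

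The Cd209a-led cluster counted 68 cells and met 7 of 10 markers fixed for a Cd209a monocyte or dendritic cell, but its leading genes also included Cd7, Klrd1 and Siglech, and Siglech, Bst2 and Tcf4 are markers of plasmacytoid dendritic cells. It was therefore split, after its values were seen, at 20 UMIs of Bst2 and Tcf4 together, a split that just 1 cell came within 5 UMIs of. The 16 cells above it (7, 4 and 5) had 115, 364 and 627 CPM of Siglech, and the 52 below it (14, 20 and 18) had 0, 21.4 and 0 CPM, where 0 UMIs allow up to 3.

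The cells high in Bst2 and Tcf4 held H2-DMa at a level close to that of the rest but far less of the chains. Cd74 was at 937, 790 and 1331 CPM in the cells high in Bst2 and Tcf4 and at 13001, 19370 and 20859 CPM in the rest. H2-Aa stood at 104, 182 and 470 CPM against 5460, 7287 and 8094 CPM. H2-DMa, in contrast, was at 625, 1174 and 1065 CPM against 744, 866 and 942 CPM, with overlapping intervals in each library. H2-DMb1 was lower in the high cells, at 479, 425 and 736 CPM against 953, 1235 and 1137 CPM. Of the 16 high cells 10 had at most 3 UMIs of Cd74, and of the 52 others 2 did. H2-DMa to H2-Aa was thus 6, 6.44 and 2.27 in the high cells and 0.136, 0.119 and 0.116 in the rest, the latter close to B-like cells. Ciita followed the chains, with 1, 2 and 4 UMIs in the high cells and 32, 59 and 107 in the others.

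Without the 16 cells, the Cd209a-led cluster led 4 of the 10 members, H2-Aa, H2-Ab1, H2-DMa and H2-DMb1, against 0.25% of the 13180 genes tested, with the split set after these values were seen. Its summed level was 27475, 41039 and 46192 CPM, above B-like cells in each library. The high cells made up 7 of 21 Cd209a-led cells in library 1 but 4 of 24 and 5 of 23 in the others. Library 1 had the lowest summed level both with and without them. Some of the 68 cells also held S100a8, a neutrophil gene: 1 cell had 672 UMIs and another 894. Of the 52 cells 2, 6 and 10, and of the 16 high cells 0, 3 and 5, were among the highest 6% of doublet scores of their library. The part of such cells in these levels was not tested.

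**Figure D4:**
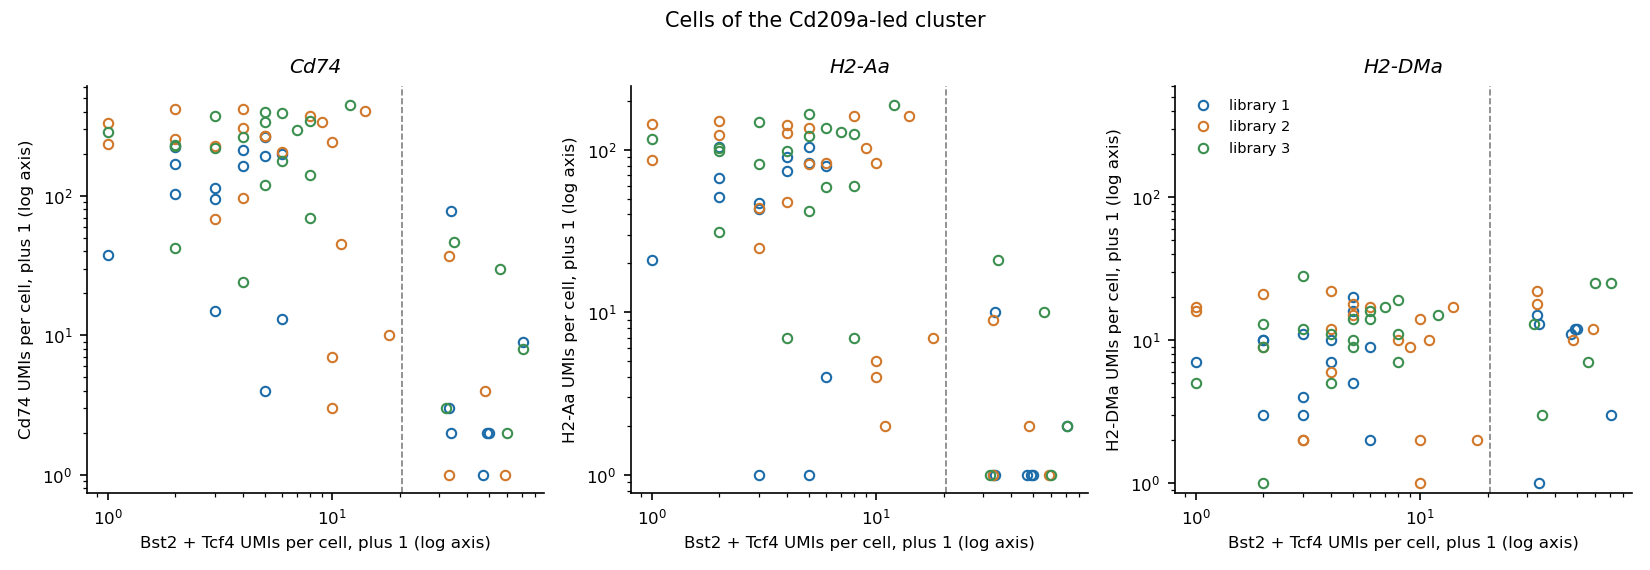
Each of the 68 Cd209a-led cells by its UMIs of Bst2 and Tcf4 together (x axis, plus 1, log scale) and its UMIs of Cd74, H2-Aa or H2-DMa (y axis, plus 1, log scale, 1 panel a gene), coloured by library; the dashed line is the split at 20 UMIs. Cells to the right of the line sit low for Cd74 and H2-Aa, with 10 of 16 at 3 Cd74 UMIs or fewer, but at the same height as the others for H2-DMa.

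Against both monocyte subsets the Cd209a-led cells were higher for all members. The level was at least 1.5 times that of classical and of non-classical monocyte-like cells in each library for 10 of 10 members, against 2.29% of 10195 genes. For H2-DMb2 and H2-Ob this rests on few molecules, as the interval of the ratio to classical cells included 1 for H2-DMb2 in library 1 (1.99, 0.477 to 6.34). When only members with at least 20 UMIs in each library of the 3 classes were counted, 5 members could be counted (the 3 chains, Cd74 and H2-DMa) and 5 of 5 met the rule. The share of all genes under that filter was not computed. The excess differed by member. Over classical cells the largest was H2-Eb1 in libraries 2 and 3 (196-fold and 261-fold), while H2-DMa was 2.69, 4.64 and 4.67 times higher.

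In each library the C1qb-led cluster had a higher summed class II level than the classical and the non-classical cells. Its leading genes were C1qb, Tmem37, Aif1 and enzymes of sterol synthesis (Idi1, Fdps, Sqle), and it met 1 of 8 classical markers, so it carries no cell type name. Over classical cells its summed level was 7.28 (6.86 to 7.73), 20.5 (19.5 to 21.5) and 38.3 (36.5 to 40.3) times higher, and over non-classical cells 5.46, 6.78 and 5.62 times. In libraries 1 and 2 it came closest to the Cd209a-led cells for Ciita. The ratio of Cd209a-led to C1qb-led cells was 1.15 (0.639 to 2.11) and 1.18 (0.856 to 1.61) there. In library 3 the Ciita ratio was 2.8 (1.95 to 4.1), and several other members, among them H2-Aa and Cd74, were closer. For H2-Oa the C1qb-led cluster held 0, 1 and 2 UMIs against 12, 24 and 28 in the Cd209a-led cells.

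Non-classical cells came in 2 sub-clusters, with no common order in class II over the libraries. The larger, led by Fabp4, Cd300e and Ace, had 957, 1545 and 2156 CPM of Cd74 over 163, 22 and 109 cells. The other, led by Fcgr4, Lilra5 and Ear2, had 6845, 1396 and 2463 CPM over 7, 40 and 104 cells, so the gap of library 1 rests on 7 cells. Classical monocyte-like cells with a Cd209a UMI, 17, 13 and 2 cells, had 2229, 700 and 0 CPM of Cd74, and those without had 582, 275 and 208 CPM. In libraries 1 and 2 the Cd74 of Cd209a-bearing classical cells was therefore higher, and the 2 cells of library 3 held no Cd74 UMI.

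B-like cells also held subsets. A sub-cluster high in Vpreb3 (1110, 958 and 1151 CPM, against 334, 476 and 514 CPM in the remaining B-like cells), a gene of immature B cells, numbered 333, 71 and 128 cells. This sub-cluster met 2 of 5 markers fixed for Vpreb3 B cells, below the 3 needed for a name, and is called by its Vpreb3 level only. Its H2-Aa was at 1886, 2469 and 2478 CPM against 4264, 4458 and 4575 CPM, or 0.442 (0.425 to 0.46), 0.554 (0.514 to 0.596) and 0.542 (0.512 to 0.572) times the rest. H2-Ab1, H2-Eb1 and H2-Oa lay between 0.465 and 0.654 times the rest, and H2-DMb1 at 0.388, 0.301 and 0.562 times. Cd74 differed much less, at 0.864 (0.85 to 0.878), 0.952 (0.923 to 0.982) and 0.983 (0.961 to 1.01) times. The Vpreb3-high cells thus carried 6.25, 5.78 and 5.95 Cd74 UMIs per H2-Aa UMI, where the remaining B-like cells carried 3.2, 3.36 and 3.28. Their H2-DMb2 to H2-DMb1 ratio was 9.95 (7.69 to 13.1), 10.5 (5.68 to 21.7) and 7.71 (5.41 to 11.3).

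B-1-like cells met 3 of 7 markers fixed for B-1 cells and had 105, 90.5 and 116 CPM of Bhlhe41. They numbered 112, 35 and 85 and were lower for nearly all members by a similar amount. Their sum was 0.779 (0.766 to 0.793), 0.765 (0.744 to 0.786) and 0.756 (0.741 to 0.771) times that of the remaining B-like cells, and their Ciita 0.62, 0.343 and 0.66 times. Their Cd74 to H2-Aa ratio, at 3.4, 3.71 and 3.39, stayed near that of the rest, unlike that of Vpreb3-high cells. Interferon B-like cells, led by Ifit3 and other interferon-induced genes and numbering 71, 60 and 106, were nearly level with the remaining B-like cells. Their sum was 0.967 (0.946 to 0.99), 0.984 (0.961 to 1.01) and 0.979 (0.962 to 0.997) times the rest, and their H2-Aa 0.924, 0.932 and 0.939 times with every interval below 1. Ciita, which interferon-gamma induces in many cell types, was at 1 (0.798 to 1.24), 1.21 (0.955 to 1.52) and 0.732 (0.579 to 0.915) times the rest, with no common direction.

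**Figure D5:**
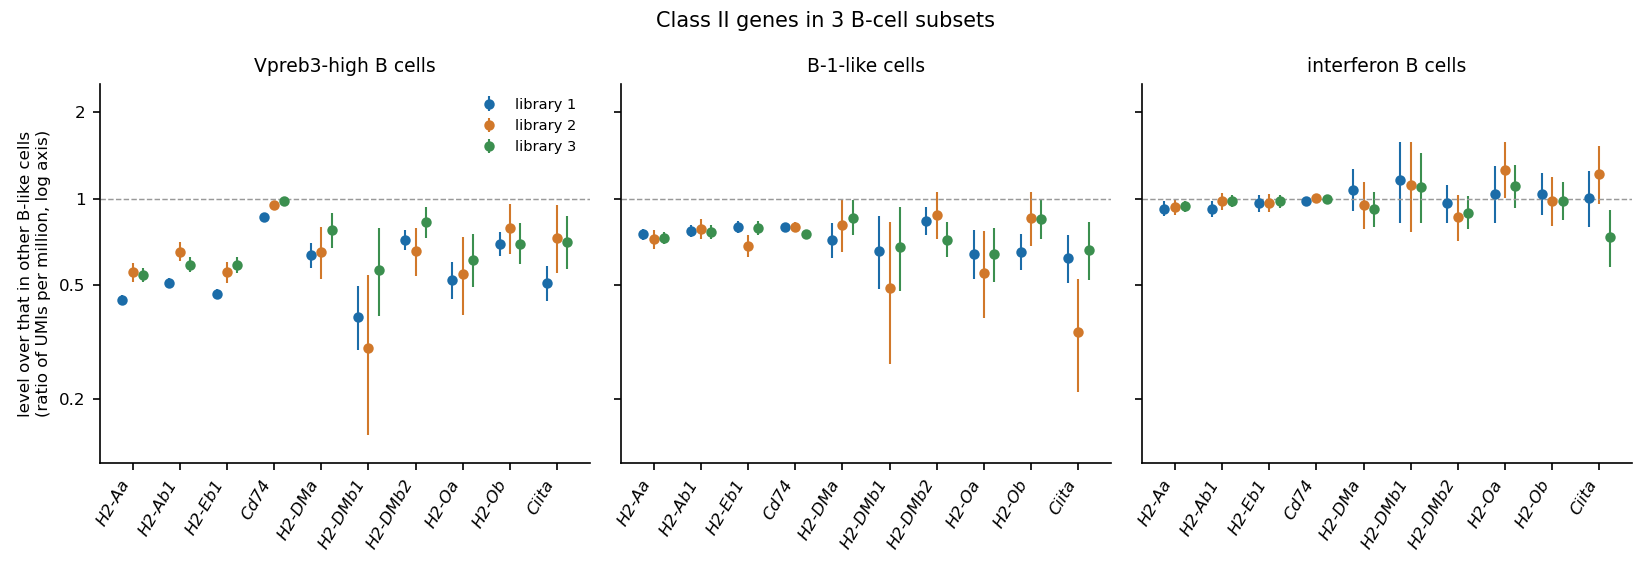
Ratio of each member's level in Vpreb3-high, interferon and B-1-like B cells to that in the remaining B-like cells of the same library (log axis, colours for libraries, 95% exact intervals). Vpreb3-high cells lie near 0.5 for H2-Aa, H2-Ab1 and H2-Eb1 but between 0.864 and 0.983 for Cd74, B-1-like cells lie near 0.75 for most members, and interferon B-like cells lie near 1.

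Between libraries, the members differed little in B-like cells. In none of the 10 members was the highest library at least 1.5 times the lowest with an interval above 1, against 10.7% of the 11319 genes tested in B-like cells. That count is near the share of all genes, and the genes tested include some with as few as 20 UMIs. Among the members the widest ratio was 1.17, for H2-Ob (1.12 to 1.22) and Ciita (1.11 to 1.23), both highest in library 1. Myeloid classes differed more. In classical monocyte-like cells 7 of the 9 members with 20 UMIs or more met the rule, against 25.9% of genes, and library 1 exceeded library 3 by 4.12-fold for H2-Eb1, 3.84-fold for H2-Aa and 3.82-fold for Cd74. H2-DMa differed by 1.31-fold (1.14 to 1.49) only. The classical cells of library 1 are nearly all of the Lpl-led sub-cluster, so library 1 and that sub-cluster cannot be told apart. Under some alternative settings given below, the classical class kept at most 1 cell in library 1, so its values there depend on the processing. Within the Chil3-led sub-cluster Cd74 was at 339 CPM in library 2 and 669 CPM in library 3, and within the one led by Prtn3, Vcan and Saa3 at 13.1 and 34.6 CPM, so both were higher in library 3 although the class as a whole was lower there. In non-classical cells 7 of 7 members met the rule, against 19.5% of genes, with library 3 highest for each of them. In C1qb-led cells 5 of 7 did, against 18.6% of genes, and in Cd209a-led cells 6 of 10, against 23.8%. Library 3 was the highest for the 3 classical chains and Cd74 in non-classical, C1qb-led and Cd209a-led cells, and the lowest for the same 4 genes in classical cells.

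Class II UMIs in the other classes were few. An estimate of the B-derived part, taken from the UMIs of Cd79a, Ms4a1 and Ighd in a class, came to 96.6%, 74.5% and 96.0% of the class II UMIs of neutrophil-like cells and 92.0%, 55.9% and 66.3% of those of T-like cells. The estimate can overshoot: it came to 123% of the class II UMIs of NK-like cells in library 1 and to 167%, 178% and 186% of the Cd74 UMIs of T-like cells. In Cd209a-led cells it was 0.638%, 0.0907% and 0.177%, and in classical monocyte-like cells 8.49%, 6.46% and 4.46%. Non-B cells with at least 3 UMIs of Cd79a, Ms4a1 and Ighd had been left out beforehand. Low values are therefore partly set by that rule and do not measure how much B-cell RNA the classes held before it. With cells thinned to 1000 UMIs, Cd74 was found in 4.97%, 1.71% and 2.25% of T-like cells, 27.8%, 11.3% and 8.02% of classical cells and 99.9%, 99.9% and 100% of B-like cells. Without thinning the shares were 26.2%, 9.43% and 13.5% in T-like cells and 72.2%, 36.7% and 45.8% in classical cells, at median depths of 6149.5, 6250.5 and 6292.5 UMIs and of 9896.5, 11471 and 15094.5 UMIs. H2-DMa was found in 26.6%, 16.3% and 21.7% of thinned classical cells, 5.29%, 6.56% and 6.1% of non-classical cells and 2.9%, 2.47% and 4.25% of T-like cells. H2-Aa was found in 9.49%, 1.81% and 4.25% of classical cells and 2.98%, 0.949% and 2.25% of T-like cells, with intervals that overlapped in libraries 2 and 3 but not in library 1.

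Of 29 further genes of the pathway, taken from a fixed list, 23 had no leading class. B-like cells led 3, against 2.12% of the 13234 genes tested. Non-classical cells led 2 and neutrophil-like cells 1. No share over all genes was computed for these counts or for genes without a leading class. None of the 29 met the rule for Cd209a-led cells over both monocyte subsets, against 2.29% of 10195 genes, so this count is near the share of all genes. The 3 led by B-like cells were March1, a ubiquitin ligase that removes class II from the surface (202, 272 and 230 CPM), Icosl, a costimulatory ligand (75.3, 77.5 and 70.3 CPM), and H2-Eb2, a relative of H2-Eb1 (36.1, 38.0 and 33.6 CPM). None of the 11 transcription factors had a leading class, where B-like cells led 2.12% and Cd209a-led cells 0.506% of all genes tested. Rfx5, which binds the X box, had 22.4, 15.3 and 19.0 CPM in B-like cells and 12.8, 14.2 and 3.65 CPM in Cd209a-led cells, and Nfyb of the NF-Y complex was found in every class, between 14.6 and 76.2 CPM.

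Of the 7 proteases and invariant chain processing genes, non-classical cells led 2 and 5 had no leading class, again without a share over all genes. Ctss, the cathepsin that trims the invariant chain, stood at 1751, 2315 and 2086 CPM in classical cells and 488, 461 and 472 CPM in B-like cells, the reverse of H2-Aa. Ctsb (1891, 1775 and 1695 CPM) and Sppl2a, which cleaves the last membrane-bound piece of the invariant chain (237, 221 and 266 CPM), were led by non-classical cells. Ctsh was at 563, 956 and 828 CPM in Cd209a-led cells and 634, 690 and 640 CPM in classical cells. Between libraries of B-like cells 3 of the 29 differed by 1.5 times or more, Ctsl, Ctsd and March8, near the 10.7% of all genes that did. Irf8, needed for several dendritic cell lineages, was at 930, 255 and 230 CPM in Cd209a-led cells.

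The genes whose levels ran most alike with H2-Aa, H2-Ab1, H2-Eb1 and Cd74 were ranked by Pearson's r of log2(CPM + 1) over 21 points, 7 classes in 3 libraries, among 10206 genes. The points share libraries and depth, so r is a description. Bcl11a, a transcription factor of B cells and plasmacytoid dendritic cells, was first (r = 0.953), with 418, 389 and 372 CPM in B-like cells, 362, 283 and 310 CPM in Cd209a-led cells and at most 62.9 CPM in the other classes. Cd40, a costimulatory receptor, followed (0.932), then Fgd2 (0.910), Il4i1 (0.909) and Spib (0.902). Kynu, Carmil1, Relb, Pmvk and Uvrag completed the 10, down to 0.863. Of the other members Ciita had 0.959, H2-DMb1 0.888, H2-DMa 0.830, H2-DMb2 0.818, H2-Oa 0.778 and H2-Ob 0.710. Within the class II set, the genes of H2-O and H2-DMb2 were thus the least like the classical chains.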

How the data were processed

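Single-cell RNA of 3 libraries of mouse blood leukocytes was read from 1 matrix of raw UMI counts that the authors deposited, per the file headers made by Cell Ranger 6.0.2. Per the submitters' processing notes, the genome was GRCm38 and the tools were Cell Ranger 4.0.0, Trimmomatic 0.39, R 4.0.2 and Seurat 3.0. No source used here says which barcodes were called as cells. Barcodes holding 200 genes or more and a mitochondrial share of 10% or less were kept (18885 of 22204), with median depths of 4243, 3797 and 4845 UMIs. Cells were clustered (scanpy 1.11.5, leidenalg 0.10.2: 2000 variable genes, 30 components, 15 neighbours, resolution 1) without the 10 members, haemoglobin, mitochondrial, immunoglobulin, T-cell receptor and 46 platelet genes. A cluster took a name from at least 3 markers of a fixed list. Scrublet's own threshold marked 0.098% of library 1, so doublets were treated by a rule chosen after seeing the data: clusters in which at least 50% of cells were among the highest 6% of scores were left out, as were non-B cells with at least 3 UMIs of Cd79a, Ms4a1 and Ighd and non-T, non-NK cells with at least 3 UMIs of Cd3e, Cd3d, Cd3g and Trac (842 cells, 4.46%). The C1qb-led name, the B-cell subsets and the Bst2 and Tcf4 split were also set after seeing the data.

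UMIs were summed per class and library. Sums have exact Poisson intervals, ratios exact conditional intervals and shares Clopper-Pearson intervals, at 95% (scipy 1.17.1). These cover counting error only, and a value of 0 allows up to 3 UMIs. With 1 library a group and no link from ending to group, no test between groups was made and no p-value is given. All 10 members are named; further genes come from a fixed pathway list of 29 genes measured and from the 10 highest correlations. The members and lists were chosen with earlier results of these data known. On simulated counts with 200 genes changed 3-fold, the rule for differences between libraries in B-like cells recovered 98.0% (11319 genes, 3.15% of unchanged genes called) and the rule for a leading B-like class 45.0% (13234 genes, 0.0% of unchanged genes called). The simulated counts were Poisson draws from 1 profile for all libraries, and for the leading class also for all classes. They hold counting error only, so these rates do not give the share of false calls in the real libraries. Alternatives changed the cell filter, doublets, clustering genes and resolution, class assignment, scaling (edgeR 4.0.16 TMM factors), B-derived RNA and a filter on low counts.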

Additional observations from a re-analysis of the deposited data

How the results depend on the processing

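Of 70 recomputed values, 54 stayed near the reported one, 16 moved and 0 changed direction; 11 had no value. The reported values are 3 members led by B-like cells, 2 led by Cd209a-led cells, 10 with Cd209a-led cells above both monocyte subsets, 0 apart between libraries in B-like cells, and, on the log2 scale for the library with the smallest difference between B-like and monocyte-like cells, 6.06 for H2-DMb2 to H2-DMb1, 4.38 for H2-O to H2-DM and 2.9 for the summed level. With all doublets kept the last 3 were 3.77, 2.09 and 2.83, and with the highest doublet scores left out instead, a choice made after seeing the data, 4.47, 2.81 and 2.95. Subtracting the B-derived part gave 7.17 and 5.52 for the first 2. The stricter cell filter (500 genes, 5% mitochondrial) gave 3.63 for H2-O to H2-DM. The summed level was 2.94 with the members left in the clustering, 3.06 with cells classed by marker UMIs, 2.83 with only members of at least 20 UMIs in each library, and, chosen after seeing the data and the furthest from the reported value, 2.24 with Cd209a-led cells counted among the monocytes. Classing by marker UMIs left 1 member led by Cd209a-led cells, and leaving out the Bst2- and Tcf4-high cells, also a later choice, gave 4. The filter of 20 UMIs left 5 members above both monocyte subsets because fewer were tested. The cause of the other shifts was not tested. The counts over classes had no value under the stricter cell filter, with members left in, or with the highest doublet scores left out. A class then had fewer than 5 cells in a library. Classical cells of library 1 numbered 1, 0 and 1 under these settings in turn, and the stricter filter left 0 Cd209a-led cells in each library. Neither ratio could be had under the filter of 20 UMIs. No paired analysis was possible because each group is 1 library and the barcode endings carry no group. Depth limits H2-DMb2, H2-Oa and H2-Ob most, which had at most 23 UMIs in the monocyte-like cells of a library.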

Other observations

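T-like cells carried H2-DMa with little of it estimated to come from B cells, unlike the chains. They had 225, 107 and 220 UMIs of H2-DMa (29.2, 31.5 and 41.6 CPM), and the estimate of the B-derived part was 9.53%, 2.88% and 3.44% of them. For H2-Aa in the same cells the estimate was 92.1%, 81.4% and 79.2% of 212, 33 and 83 UMIs. H2-DMb1 gave only 12, 0 and 6 UMIs, so H2-DMb1 per H2-DMa was 0.0533 (0.0272 to 0.095), 0 and 0.0273 (0.0099 to 0.0603), far below the B-like ratios. H2-Oa was present at 10.8, 11.2 and 10.0 CPM in T-like cells, of which 14.9%, 4.37% and 7.88% was B-derived by the same estimate, and H2-Ob at 19.0, 10.0 and 10.0 CPM. NK-like cells had 28.5, 25.4 and 24.0 CPM of H2-DMa from 35, 9 and 19 UMIs, while neutrophil-like cells of libraries 2 and 3 had 1.47 and 1.82 CPM. The T-like and NK-like levels of H2-DMa were thus above the neutrophil-like level in each library, at 7.81 CPM in library 1. T-like and NK-like cells with at least 3 UMIs of Cd79a, Ms4a1 and Ighd had been left out beforehand, which bounds the B-derived estimate. No test beyond these counts was made.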
